A study of Mus musculus with 8 samples.

Results

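The Frizzled receptors are the family of seven-pass membrane proteins that bind Wnt ligands, and their 10 genes (Fzd1 to Fzd10) were taken by symbol from a table of 15035 genes. All 10 were found, and all 10 passed the filter on low values (10 or more normalized counts in 4 or more libraries). Fzd9 brought the family in because it was higher in the heterozygote-labelled libraries, so its genotype difference is given as a description with no test; the other 9 members were taken by name. The auditory nerves were dissected at postnatal day 21, and both cochleas of a mouse went into 1 RNA library, so 1 library stands for 1 mouse. The groups were 4 wild-type mice (replicates 1 to 4) and 4 mice labelled as heterozygous for Mef2c, a transcription factor gene (replicates 5 to 8), with no treatment named for either. Both groups share the age, the tissue, the pooling and the library protocol. The labels name no strain, allele, sex, litter or sequencing batch.

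Wnt proteins bind the cysteine-rich outer domain of a Frizzled. With Lrp5 or Lrp6 as co-receptor, this stabilises beta-catenin, which then acts with TCF and LEF factors on target genes; with Ror, Ryk or Vangl partners it feeds planar cell polarity and calcium branches instead. By sequence the family falls into subgroups: Fzd1, Fzd2 and Fzd7; Fzd5 and Fzd8; Fzd3 and Fzd6; Fzd9 and Fzd10; and Fzd4, which also serves as the receptor for norrin. In the inner ear, Frizzled and core polarity proteins are known for orienting hair cells, and Frizzled signalling is known for guiding axons and shaping vessels.

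The libraries held an estimated 13363354 to 21507209 reads, where 3 reads correspond to 2.37 to 3.89 normalized counts (reads per gene after division by the size factor of a library), and every member lay far above that. Mef2c was higher in the heterozygote-labelled libraries (583.3 to 735.1 normalized counts) than in wild type (402.2 to 508.7). An exact permutation test (two-sided) gave p = 0.0286, the smallest that 4 against 4 can give, with a limma-trend adjusted p of 0.186. The authors' deposited table gave Mef2c an FDR of 0.0162, where 1.61% of genes had an FDR under 0.05. A higher transcript is not what a lost copy would be thought to give, but the labels name no allele. What this means for the label was not tested, and every direction below is between libraries as labelled. The tissue label was checked against markers. The 11 neuron markers summed to 204516 to 280014 normalized counts in wild type and 228682 to 272831 in the heterozygote-labelled libraries, and the 9 Schwann cell markers to 117832 to 148417 and 106034 to 146477. RNA of the cochlear wall and bone was also present. Over the 8 libraries, 9 supporting and lateral wall markers summed to 143996 to 189030 and 12 osteoblast and osteocyte markers to 46626 to 68906. Sums of the 9 overlapped between genotypes (143996 to 180517 in wild type, 145863 to 189030 in the heterozygote-labelled libraries). At an unadjusted limma-trend p under 0.05, 2 of the 9 were higher and 0 lower, beside 6.72% and 7.34% of all genes, and 0 passed adjustment. The authors' deposited table gave 2 of the 9 an FDR under 0.05. The 14 oligodendrocyte markers summed to 199525 to 268689 in wild type against 101905 to 137318, and the 8 astrocyte markers to 23074 to 33676 against 12712 to 21099, so both lists separated the genotypes. Of the 14 oligodendrocyte markers, 4 were lower past adjustment in limma-trend and 11 were lower without overlap. For the 8 astrocyte markers these counts were 0 and 3. For the 9 Schwann cell markers, whose sums overlapped, they were 1 and 2. Of all genes tested, 0.074% were lower past adjustment and 3.86% lower without overlap. Endothelial, fibroblast and macrophage marker sums overlapped between genotypes. The 4 neutrophil markers measured had sums of 106 to 2346 and 649 to 6030, which also overlapped. Taken singly, 3 of the 4 were higher without overlap, beside 3.4% of all genes tested. All 4 had log2 fold changes above 0 (median 3.67), beside 52.3% of all genes, and none passed adjustment in limma-trend. None of these markers was at 0 in any library. In bulk tissue, fewer cells of a type and less RNA per cell cannot be told apart. Wild-type library 1 and heterozygote-labelled library 5 had low Xist (12 and 7.6 normalized counts, against 5175 to 8615 in the others). No label ties mice to litters, and p-values measure only the spread between these 8 samples.

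Fzd9 is a gene of 1 exon at chr5:135248938-135251230 on the minus strand of GRCm38 (GENCODE M21), the build that the submitters name as mm10; 6 of the 10 members are annotated as 1 exon, and Fzd3 and Fzd6 have 7. RefSeq promoter windows (GRCm38.p6, 250 bases before to 50 after the start) were given for 6 members: Fzd1, Fzd4, Fzd5, Fzd7, Fzd9 and Fzd10. They are shown here for the 2 members with the most transcript per length (Fzd9 and Fzd7) and the member with the largest estimated difference (Fzd5), up to the first annotated transcript start, which leaves 67 bases for Fzd9. The sequences lie at chr5:135251231-135251297 (minus strand), chr1:59481897-59482146 (plus strand) and chr1:64737752-64738000 (minus strand), and capitals mark GGGCGG read on either strand, the GC box core.
Fzd9: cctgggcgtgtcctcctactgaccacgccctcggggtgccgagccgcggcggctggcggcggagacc
Fzd7: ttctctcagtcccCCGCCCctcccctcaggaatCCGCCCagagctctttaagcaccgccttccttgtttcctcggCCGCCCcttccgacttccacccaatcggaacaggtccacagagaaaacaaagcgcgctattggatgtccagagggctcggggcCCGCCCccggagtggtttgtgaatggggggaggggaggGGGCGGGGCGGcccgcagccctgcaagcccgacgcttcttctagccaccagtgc
Fzd5: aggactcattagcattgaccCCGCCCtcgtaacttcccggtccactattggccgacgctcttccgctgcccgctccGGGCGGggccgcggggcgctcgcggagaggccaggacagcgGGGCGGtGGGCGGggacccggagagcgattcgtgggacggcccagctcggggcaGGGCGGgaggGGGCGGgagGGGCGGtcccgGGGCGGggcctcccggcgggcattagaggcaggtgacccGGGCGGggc
The Fzd7 and Fzd5 stretches above hold 6 and 9 GC boxes, and the Fzd9 stretch holds 0. Over the whole 300-base windows, GGGCGG (either strand, overlaps counted) occurred in 5 of the 6 member promoters, all but that of Fzd1. This compares with 35.7% of 32851 RefSeq promoter windows of the same length. The whole Fzd10 window and all but 67 bases of the Fzd9 window lie inside the annotated transcripts, as do their only matches. The Fzd9 window was 78.0% G or C, with a ratio of observed to expected CpG of 1.18, the highest of the 6, against a median of 52.7% and 0.384 over all windows. The MEF2 motif was found in 0 of the 6 windows and in 3.19% of all windows. CTTTGAA or CTTTGAT, the core that TCF and LEF factors bind, was found in 0 of 6 and in 8.65% of all. These matches only describe the letters in these windows.

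To compare members with each other, levels were divided by transcript length (the longest coding transcript). Fzd9 had the highest level in all 8 libraries, at 601 ± 27.2 normalized counts per kilobase in wild type and 874 ± 70.1 in the heterozygote-labelled libraries (SD, n = 4 each). Fzd7 followed at 397 ± 19.8 and 444 ± 40.3 per kilobase, and the ranges of Fzd9 and Fzd7 over the 8 libraries did not overlap. Fzd2 (309 ± 82.2 and 287 ± 27.9) and Fzd1 (289 ± 62.2 and 283 ± 36.4) came next and could not be ordered, since Fzd2 was above Fzd1 in 5 of 8 libraries. Fzd7 was above Fzd2 in 7 of 8, the exception being wild-type library 1. Fzd6 held rank 5 in every library, at 167 ± 36.3 and 161 ± 10.8 per kilobase.

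A lower tier of 3 members lay close together in level per kilobase. Fzd10 had 85.7 ± 21.2 in wild type and 108 ± 12.9 in the heterozygote-labelled libraries, Fzd3 had 84.4 ± 19.3 and 91.7 ± 10.96, and Fzd8 had 73.4 ± 10.1 and 87.8 ± 6.95 (SD, n = 4 each). Their order did not hold: Fzd10 was above Fzd3 in 1 of 4 wild-type libraries and in 4 of 4 labelled heterozygote, and Fzd3 was above Fzd8 in 6 of 8. Fzd4 (44.8 ± 11.5 and 48.8 ± 10.1) held rank 9 and Fzd5 (22.9 ± 6.43 and 34.8 ± 10.3) was last in every library by this length. Fzd5 has 2 annotated coding transcripts, and the order of these 2 genes turned with the choice: with the shorter of 2895 bases in place of 6915, Fzd5 was above Fzd4 in 7 of 8 libraries.

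**Figure D1:**
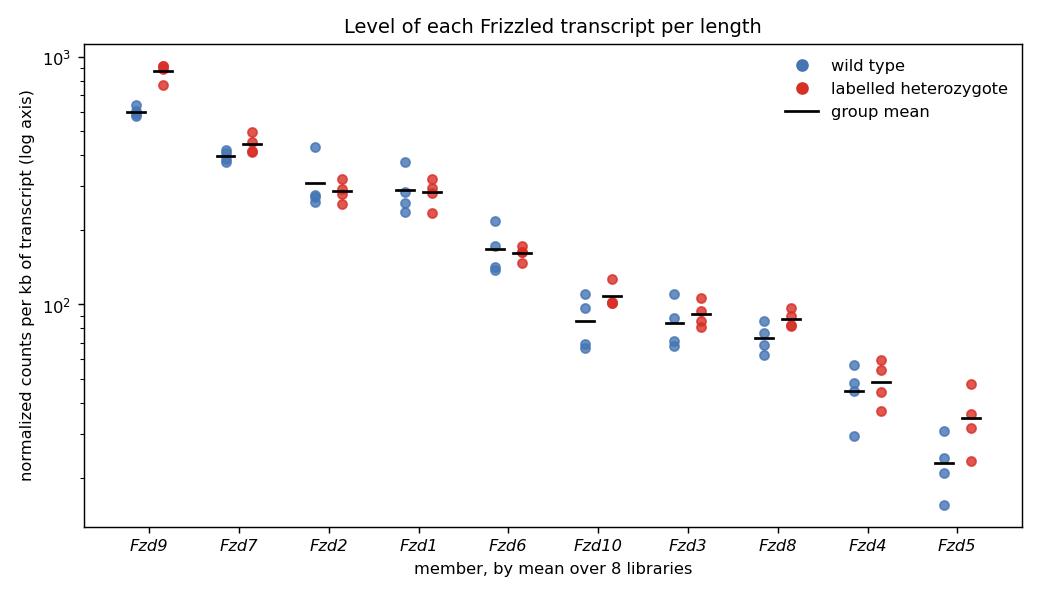
Normalized counts per kilobase of transcript (log axis) for the 10 Frizzled genes, ordered by their mean over 8 libraries; points are libraries, blue for wild type and red for labelled heterozygote, and black bars are group means. Fzd9 lies above every other member in each library, from 574 to 917 per kilobase, and Fzd5 is the lowest by its longest coding transcript, from 15.5 to 48.0, but lies above Fzd4 in 7 of 8 libraries by its shorter one (not drawn).

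As shares of the family's summed level per kilobase, Fzd9 made up 29.0% ± 1.57 in wild type and 36.1% ± 1.81 in the heterozygote-labelled libraries (SD, n = 4 each). The whole family summed to 2075 ± 162 and 2420 ± 149 normalized counts per kilobase. Without Fzd9 the other 9 summed to 1474 ± 145 and 1546 ± 102, with overlapping ranges (1331 to 1651 and 1458 to 1664). The Fzd1, Fzd2 and Fzd7 subgroup held 45.1% to 54.0% of the sum in wild type and 40.3% to 43.6% in the heterozygote-labelled libraries. Fzd9 with Fzd10 held 31.6% to 34.8% and 38.9% to 42.8%. Both shifts include the Fzd9 difference that chose the family, since shares add up to a fixed total. The subgroups of Fzd3 with Fzd6 (9.16% to 14.1% and 9.75% to 11.4%) and Fzd5 with Fzd8 (3.97% to 5.39% and 4.45% to 5.38%) overlapped between genotypes.

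Genotypes were then compared with limma-trend on log2(value + 1) over all 14870 genes tested, on which scale the fold changes of low genes are understated. Of the 9 members other than Fzd9, 0 had a Benjamini-Hochberg adjusted p under 0.05 in limma-trend, against 0.0807% of all genes tested (0.00672% higher and 0.074% lower). At an unadjusted limma-trend p under 0.05 there was 1 of the 9 (Fzd5), against 14.1% of all genes (6.72% higher and 7.34% lower), and limma-voom on estimated reads gave 0 at either level. None of the 9 separated the genotypes, against 7.26% of all genes (3.4% higher and 3.86% lower). Their median log2 fold change was 0.14, with 6 of 9 above 0, beside a median of 0.02 and 52.3% above 0 over all genes tested. After correction for transcript length the median was -0.03, with 4 of 9 above 0.

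**Figure D2:**
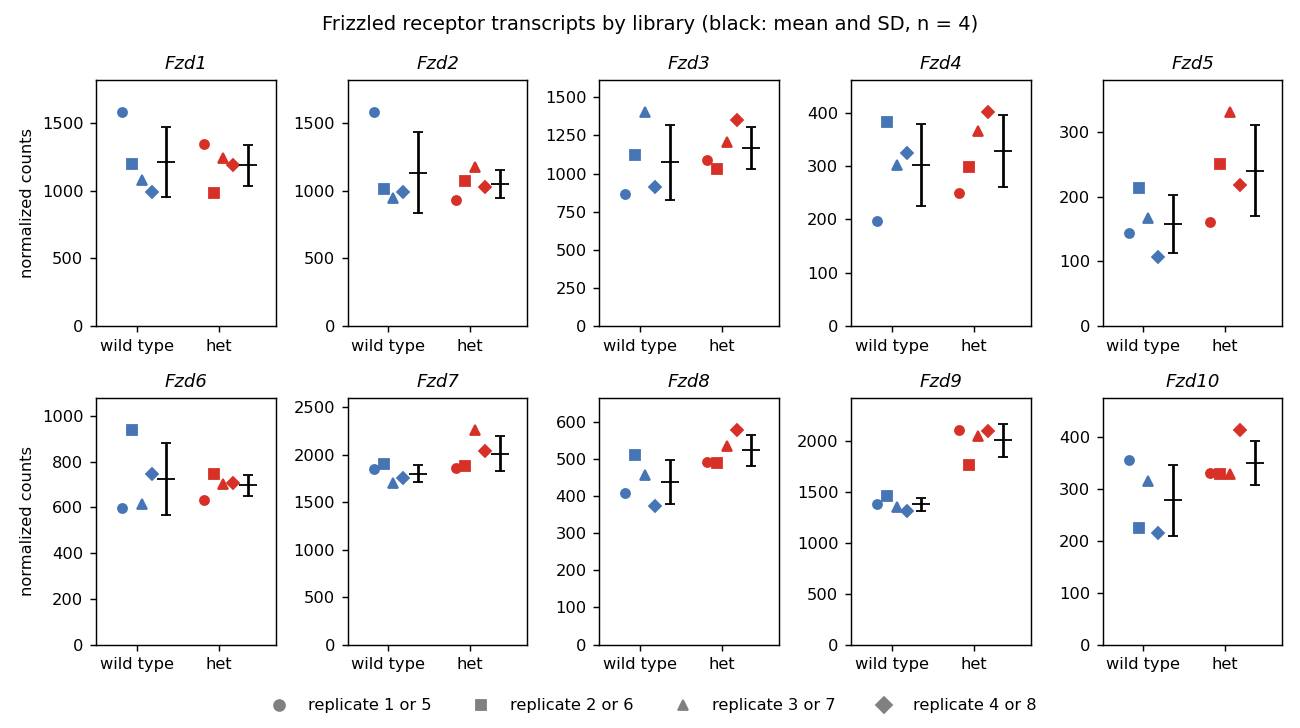
Normalized counts of each Frizzled gene in each library (each panel has its own axis from 0); blue points are wild type, red points are labelled heterozygote, and black marks are the mean and SD of 4 libraries. Symbols name the replicate and do not pair the samples. Only in the Fzd9 panel do the groups not overlap, at 1315 to 1462 against 1765 to 2103.

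Fzd9 encodes a receptor expressed in neural and skeletal tissue whose loss in mice is known to lower bone formation, and its human gene lies in the region deleted in Williams syndrome. Its wild-type libraries had 1379.5, 1462.0, 1351.1 and 1315.4 normalized counts, and those labelled heterozygote had 2102.9, 1765.3, 2050.6 and 2096.5, in the order of replicates. All 4 heterozygote-labelled libraries were above every wild-type library, and library 6 was the lowest of them. The means were 1377 ± 62.4 and 2004 ± 161 (SD, n = 4 each), and the log2 fold change came to 0.54 (SE 0.09). This is the value that chose the gene, and 5.17% of all genes tested had a larger log2 fold change. Genes without overlap in the higher direction were 3.4% of those tested, and nothing is read from this for Fzd9. A ratio of 1.45 stood for Fzd9 in the authors' deposited table. Leaving out 1 library at a time moved its log2 fold change between 0.51 and 0.60. The oligodendrocyte and astrocyte marker sums above separated the genotypes in the other direction. In that direction 4 of the 14 oligodendrocyte, 0 of the 8 astrocyte and 1 of the 9 Schwann cell markers passed adjustment in limma-trend. All 12 osteoblast and osteocyte markers had log2 fold changes above 0, beside 52.3% of all genes. An unadjusted limma-trend p under 0.05 was found for 5 of the 12, beside 6.72% of all genes in the higher direction. Of the 12, 0 passed adjustment, and their sums overlapped. The 4 neutrophil markers had log2 fold changes of 1.90 to 4.09. Of these 4, 3 had an unadjusted limma-trend p under 0.05 (beside the same 6.72%) and 0 passed adjustment in limma-trend. The authors' deposited table gave 3 of the 4 an FDR under 0.05, beside the same 1.61%. The part of these cell types in the Fzd9 difference was not tested.

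Fzd10 is the closest relative of Fzd9. It had 356.9, 225.5, 315.3 and 216.2 normalized counts in wild type and 331.3, 328.5, 328.9 and 413.5 in the heterozygote-labelled libraries. The groups overlapped, since wild-type library 1 was above 3 of the 4 heterozygote-labelled libraries. Its log2 fold change was 0.36 (SE 0.19; limma-trend adjusted p 0.396), and the 95% interval of -0.05 to 0.77 includes both 0 and the Fzd9 value. Fzd10 was a minor transcript beside Fzd9, at 0.143 ± 0.0362 of the Fzd9 level per kilobase in wild type and 0.124 ± 0.0137 in the heterozygote-labelled libraries (SD, n = 4 each). Fzd10os, a non-coding gene whose end lies 419 bases before Fzd10, had 101 ± 15.8 and 84.2 ± 21.7 normalized counts, with a log2 fold change of -0.28 (limma-trend adjusted p 0.615).

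Among Fzd7, Fzd1 and Fzd2, broadly expressed receptors of the beta-catenin branch, Fzd7 varied least between libraries. Fzd7 had 1846.7, 1899.6, 1699.4 and 1756.2 normalized counts in wild type and 1862.9, 1880.3, 2256.1 and 2041.2 in the heterozygote-labelled libraries. Libraries 7 and 8 were above every wild-type library, and libraries 5 and 6 lay within the wild-type range. The log2 fold change of Fzd7 was 0.16 (SE 0.09; limma-trend adjusted p 0.448). Its residual SD of 0.10 log2 units was lower than that of most genes (median 0.24, with 8.08% of genes lower). The 95% interval of its log2 fold change, -0.05 to 0.36, is narrower than those of the other 8 members tested.

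Fzd1 had 1582.0, 1198.6, 1078.0 and 990.4 normalized counts in wild type and 1342.6, 980.2, 1241.1 and 1187.0 in the heterozygote-labelled libraries. Fzd2 had 1582.0, 1011.7, 945.0 and 991.6, and 930.9, 1072.6, 1176.1 and 1024.8. In both genes wild-type library 1 was the highest of all 8, and the other 7 libraries of Fzd2 lay between 930.9 and 1176.1. The log2 fold change was -0.02 ± 0.15 for Fzd1 and -0.08 ± 0.16 for Fzd2 (SE), with limma-trend adjusted p of 0.969 and 0.833. Without wild-type library 1 these became 0.12 and 0.09, and without heterozygote-labelled library 6 the Fzd1 value was 0.07, so neither sign held when single libraries were left out.

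Fzd5 and Fzd8 form the subgroup known for roles in the eye and, for Fzd5, in the gut epithelium. Fzd5 had 144.1, 213.7, 166.8 and 107.5 normalized counts in wild type and 161.8, 250.9, 331.7 and 218.5 in the heterozygote-labelled libraries. Libraries 6, 7 and 8 were above every wild-type library, and library 5 was not. With a log2 fold change of 0.60, Fzd5 had the largest estimate of the family, but also the widest error, with a standard error of 0.26 (limma-trend adjusted p 0.337). In the authors' deposited table Fzd5 had a ratio of 1.52 with an FDR of 0.258, where 1.61% of genes had an FDR under 0.05. Its longest coding transcript falls in the longest of 10 bins of tested genes by length, which had a median log2 fold change of 0.23. After the length correction, which used that transcript, its own value was 0.43. The shorter coding transcript of 2895 bases would fall in the bin of 2701 to 3162 bases, with a median of 0.0004. A correction with that length was not run.

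Fzd8 had 410.1, 512.6, 459.2 and 373.2 normalized counts in wild type and 493.1, 490.5, 535.3 and 578.5 in the heterozygote-labelled libraries. All 4 heterozygote-labelled libraries were above 3 of the wild-type libraries, and wild-type library 2 lay among them. The log2 fold change of Fzd8 was 0.26 (SE 0.13; limma-trend adjusted p 0.386), and it was 0.12 after the length correction.

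Fzd3 and Fzd6 are the receptors known for planar cell polarity, Fzd3 in the growth of axon tracts and Fzd6 in hair patterning, and together they orient hair cells of the inner ear. Fzd3 had 866.9, 1118.2, 1404.3 and 908.3 normalized counts in wild type and 1088.4, 1032.5, 1203.4 and 1348.3 in the heterozygote-labelled libraries. The highest value of all was in wild-type library 3, and the groups overlapped. The log2 fold change of Fzd3 was 0.14 (SE 0.15; limma-trend adjusted p 0.682), and it was -0.15 after correction for transcript length, the Fzd3 transcript being the longest of the family at 12734 bases. Fzd6 had 598.3, 937.6, 615.1 and 746.4, and 633.3, 745.0, 702.1 and 707.0, so all 4 heterozygote-labelled libraries lay within the wild-type range. Its log2 fold change was -0.03 (SE 0.15; limma-trend adjusted p 0.928), with a 95% interval of -0.35 to 0.28; leaving out wild-type library 2 gave 0.10, and leaving out heterozygote-labelled library 5 gave 0.01.

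Fzd4, the norrin receptor of retinal and cochlear vessels, had 197.3, 381.7, 301.6 and 324.9 normalized counts in wild type and 249.8, 297.1, 364.7 and 401.3 in the heterozygote-labelled libraries. Its lowest values were in wild-type library 1 and heterozygote-labelled library 5, the 2 libraries with low Xist. The log2 fold change was 0.14 (SE 0.22; limma-trend adjusted p 0.786), and without wild-type library 1 it was -0.05. Its ligand Ndp (norrin) had a log2 fold change of -0.13 and its partner Tspan12 of -0.05, with limma-trend adjusted p of 0.801 and 0.875. The 8 endothelial markers summed to 7862 to 9615 normalized counts in wild type and 7181 to 7940 in the heterozygote-labelled libraries.

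**Figure D3:**
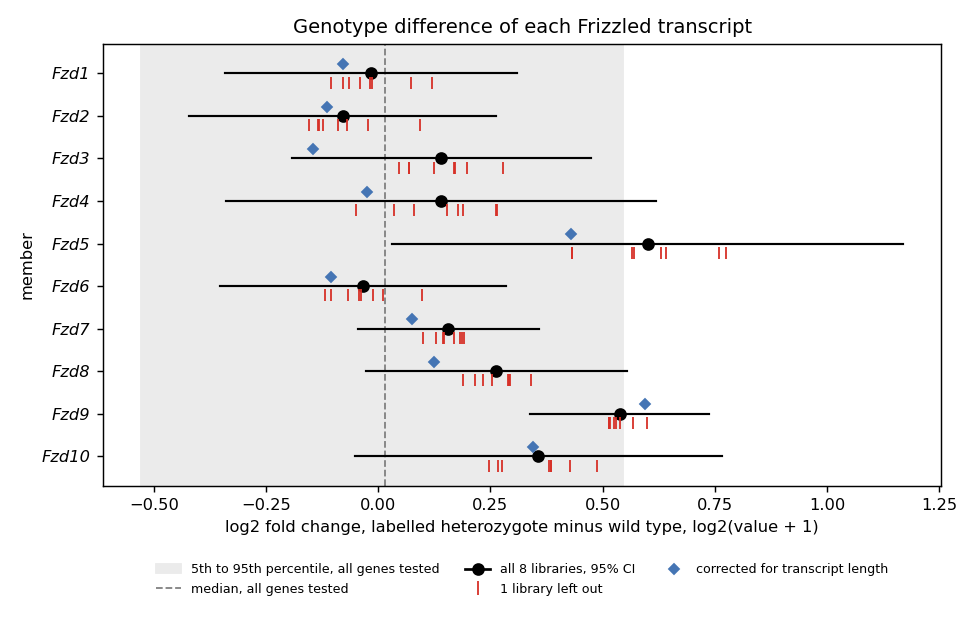
Log2 fold change of each Frizzled gene on the log2(value + 1) scale, labelled heterozygote minus wild type; black points with lines are the fit on 8 libraries with 95% intervals, red ticks leave out 1 library each, and blue diamonds are corrected for transcript length. The grey band spans -0.53 to 0.55, the 5th to 95th percentile of all genes tested. Correction for length lowers the estimate of 9 members and raises that of Fzd9, from 0.54 to 0.59.

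Transcript length mattered for the sign of several estimates. Over 10 bins of tested genes by length, the median log2 fold change ran from -0.27 in the shortest bin to 0.23 in the longest. Fzd9, the shortest member at 2293 bases, lay in bin 4 (2239 to 2700 bases), where the median was -0.04. Fzd3 and Fzd5 (by its longest coding transcript) lay in the longest bin, and Fzd4 and Fzd8 in the next, where the median was 0.14. With the correction, the log2 fold changes of Fzd3 and Fzd4 changed sign, to -0.15 and -0.03.

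Mice differed in which members deviated most. As deviations from the mean of their own genotype, values in wild-type library 1 ran from -0.57 (Fzd4) to 0.52 (Fzd2) log2 units, the widest span of the 8 libraries. In heterozygote-labelled library 6 all lay between -0.27 and 0.11. Fzd9 and Fzd7, the members with the highest level per kilobase, deviated by at most 0.18 and 0.17 in any library, and Fzd5 by up to 0.52. By these deviations over 8 libraries, the 3 tested genes most alike to Fzd9 were Cep128, a centriole protein, Tgs1, an RNA cap methyltransferase, and Ccdc130, with Pearson r of 0.967, 0.963 and 0.961; these are the highest of 14869 genes over 8 points and describe only these libraries. Heterozygote-labelled library 6, where Fzd9 had its widest deviation (-0.18), was also the lowest of its group for each of these 3 genes. The log2 fold changes of Cep128, Tgs1 and Ccdc130 were 0.36, 0.10 and -0.22, none past adjustment in limma-trend. Among members, Fzd1 and Fzd8 were the most alike to Fzd9 (r = 0.61 and 0.58) and Fzd2 the least (-0.05).

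**Figure D4:**
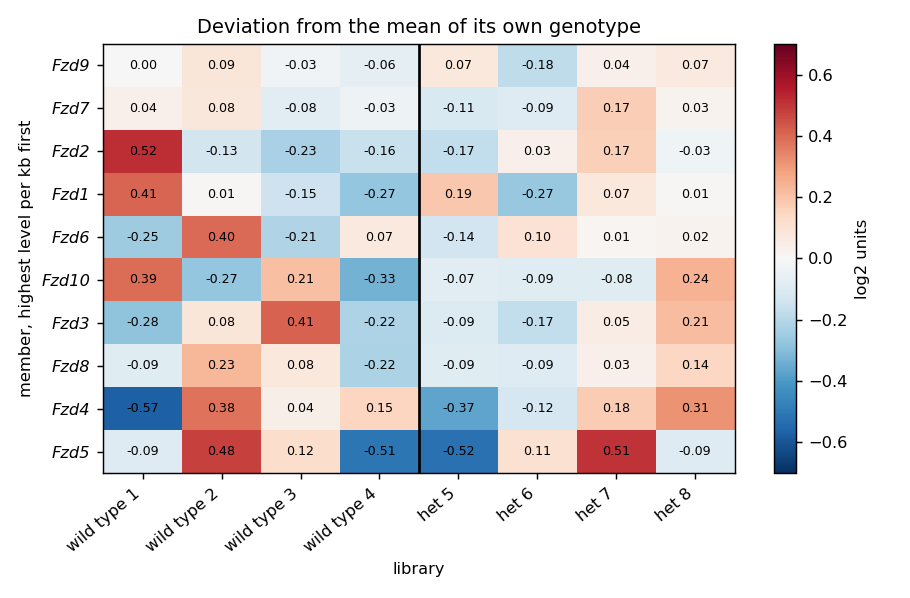
Deviation of each Frizzled gene (rows, highest level per kilobase first) in each library (columns) from the mean of its own genotype, in log2 units of value + 1; red is above and blue below, and each cell prints its value. Wild-type library 1 holds both the most extreme low (-0.57, Fzd4) and a high of 0.52 (Fzd2), and the Fzd9 row stays within 0.18 of 0.

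The genes next to Fzd9 on chromosome 5 were read from the same fit, chosen by position after the Fzd9 value was known. Baz1b, a chromatin regulator 2807 bases away, had 2272 normalized counts in wild type and 2619 in the heterozygote-labelled libraries, a log2 fold change of 0.21 (limma-trend adjusted p 0.325). Bcl7b, the next tested gene on that side, had -0.16, and on the other side Nsun5 and Pom121 had -0.17 and 0.37, with limma-trend adjusted p from 0.355 to 0.796. The neighbours had estimates of both signs. Unadjusted limma-trend p was 0.0331 for Baz1b and 0.0497 for Pom121, and 0.206 for Bcl7b and 0.554 for Nsun5. Over all genes tested, 6.72% were higher and 7.34% lower at an unadjusted p under 0.05. Whether the region moved together was not tested.

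Other genes of the Wnt pathway were examined in lists ordered by role, 75 tested genes in all with each counted once. None had a limma-trend adjusted p under 0.05, against 0.0807% of all genes tested. At an unadjusted limma-trend p under 0.05, 14 were higher and 2 lower, beside 6.72% and 7.34% of all genes, or 16 of 75 beside 14.1%. Limma-voom on estimated reads also gave 0 past adjustment and 14 of 75 at an unadjusted p under 0.05, beside 13.5% of all genes in that fit. The median log2 fold change of the 75 was 0.11, with 49 above 0, beside a median of 0.02 and 52.3% above 0 over all genes tested. Of the 75, 3 (Wnt2b, Wif1 and Lgr4) were higher without overlap and 0 lower, beside 3.4% and 3.86% of all genes. After the length correction 9 of 75 had an unadjusted limma-trend p under 0.05, beside 10.3% of all genes in that fit.

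The list of 20 Wnt ligands includes norrin (Ndp), which binds Fzd4 and is not a Wnt. Of the 20, 14 were measured, Ndp among them, and Wnt1, Wnt3a, Wnt8a, Wnt8b, Wnt9b and Wnt10a were not analysed here. The median of the 14 was -0.03, with 6 above 0. Wnt5a, a ligand of the polarity branch, had the most normalized counts (2272 ± 410 and 2678 ± 236; log2 fold change 0.25, limma-trend adjusted p 0.395). Wnt2b had 366.0, 792.5, 557.3 and 363.6 normalized counts in wild type and 794.0, 827.7, 895.3 and 912.3 in the heterozygote-labelled libraries. Wnt2b thus had no overlap, by a gap of 1.5 normalized counts between wild-type library 2 and heterozygote-labelled library 5, with a log2 fold change of 0.80 ± 0.22 (SE) that did not pass adjustment (limma-trend adjusted p 0.222). Wnt3 had the smallest p among lower ligands, with a log2 fold change of -0.50 (limma-trend adjusted p 0.391).

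Of the 9 co-receptors and receptor partners, 7 had log2 fold changes above 0, with a median of 0.11. Lrp6, the co-receptor of beta-catenin signalling, was the most abundant (2370 ± 296 and 2821 ± 127 normalized counts; log2 fold change 0.26, limma-trend adjusted p 0.304). The 12 secreted antagonists had a median of 0.03 with 6 on each side of 0, and they held the widest range. At an unadjusted limma-trend p under 0.05, 3 of the 12 were higher and 2 lower, beside 6.72% and 7.34% of all genes, and 0 passed adjustment. Wif1, which binds Wnts outside the cell, had 210.2, 113.6, 266.7 and 152.2 normalized counts in wild type and 345.4, 274.5, 360.9 and 385.4 in the heterozygote-labelled libraries. All 4 Wif1 values labelled heterozygote were above wild type, with a log2 fold change of 0.94 ± 0.25 (SE) and a limma-trend adjusted p of 0.220. The authors' deposited table gave Wif1 an FDR of 0.0418. Dkk2, an Lrp-binding modulator, had 2334.7, 2675.6, 1382.3 and 2610.2 against 1296.9, 1395.8, 1411.7 and 1913.7, with wild-type library 3 down among the heterozygote-labelled libraries (log2 fold change -0.55, limma-trend adjusted p 0.280). Without wild-type library 3, Wif1 and Dkk2 both had a limma-trend adjusted p under 0.05. This was the only fit of 19 in which a pathway gene passed. In it 221 of all 14826 genes tested passed, against 12 of 14870 in the fit with that library. Dkk3, the most abundant antagonist, had a log2 fold change of 0.08 (limma-trend adjusted p 0.687).

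In the branch that sets Frizzled turnover, the ligases Znrf3 and Rnf43, which remove Frizzleds from the membrane, had log2 fold changes of 0.08 and 0.17 (limma-trend adjusted p 0.887 and 0.560). Lgr4, an R-spondin receptor that restrains those ligases, had 1109.6, 973.9, 987.2 and 908.3 normalized counts in wild type and 1255.7, 1204.1, 1256.2 and 1245.1 in the heterozygote-labelled libraries. The genotypes did not overlap for Lgr4, with a log2 fold change of 0.32 ± 0.09 (SE) and a limma-trend adjusted p of 0.243. Lgr6 had -0.51 (limma-trend adjusted p 0.395).

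Among 16 intracellular transducers, 11 were above 0 with a median of 0.12. Beta-catenin itself (Ctnnb1) was the most abundant, with 12168 ± 1213 and 13356 ± 1384 normalized counts and a log2 fold change of 0.13 (limma-trend adjusted p 0.583). The Dishevelled genes, whose proteins bind the Frizzled tail, had log2 fold changes of -0.19 for Dvl1, -0.05 for Dvl2 and 0.43 for Dvl3, with limma-trend adjusted p of 0.379, 0.905 and 0.266. The 13 beta-catenin target genes had a median of 0.08, with 0 of 13 higher and 1 lower (Notum, a secreted Wnt-inactivating enzyme, -0.85, limma-trend adjusted p 0.329) at an unadjusted limma-trend p under 0.05. Apcdd1, the most abundant target and a membrane inhibitor of Wnt, had 0.26, and Tcf7 had 0.40 (limma-trend adjusted p 0.476 and 0.411). Over all genes tested, 6.72% were higher and 7.34% lower at that unadjusted p. Axin2 and Lef1, common readouts of that branch, had log2 fold changes of 0.19 and 0.03 (limma-trend adjusted p 0.527 and 0.953); both genes, with Notum, Lgr5, Tcf7, Znrf3 and Rnf43, stand in more than 1 list.

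All 10 core genes of planar cell polarity had log2 fold changes above 0, beside 52.3% of all genes, with a median of 0.28. At an unadjusted limma-trend p under 0.05 there were 4, beside 6.72% of all genes in that direction, and none passed adjustment. Ankrd6 (Diversin) had the smallest p, at 178 ± 50.9 and 286 ± 50.3 normalized counts (log2 fold change 0.70, limma-trend adjusted p 0.259). Celsr2, the most abundant, had 0.24 (limma-trend adjusted p 0.393). After the length correction 8 of the 10 were above 0 and the median was 0.15, and 7 of 10 with a median of 0.19 lay above 0 on leaving out both low-Xist libraries.

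**Figure D5:**
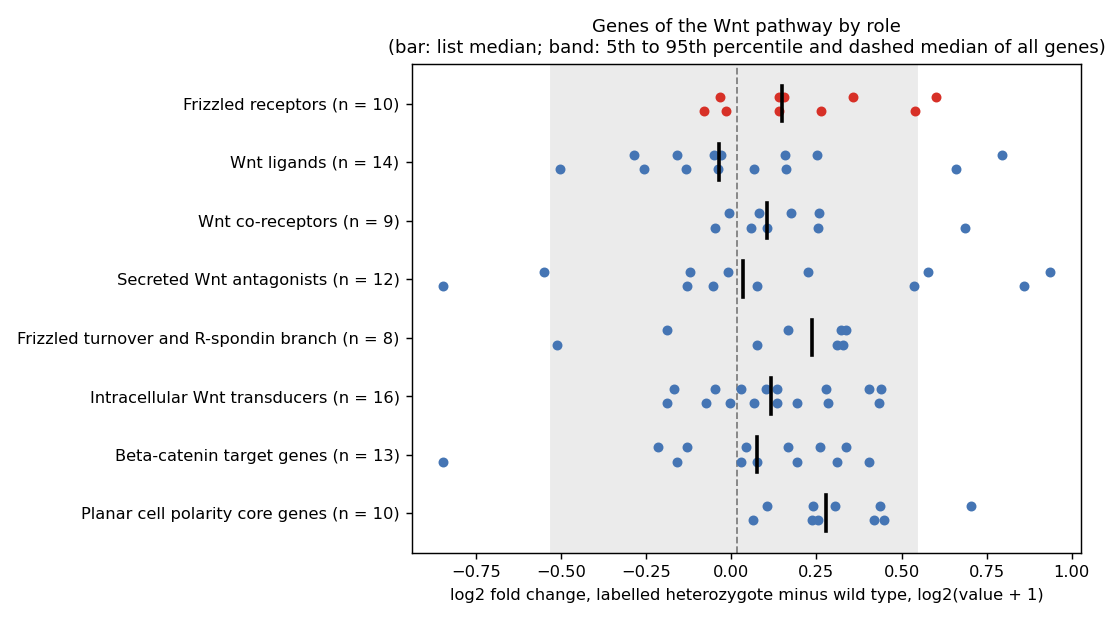
Log2 fold change (log2(value + 1) scale, labelled heterozygote minus wild type) of each tested gene of the Frizzled family (red) and of 7 lists of Wnt pathway genes (blue); black bars are list medians, the dashed line is the median of all genes tested and the grey band their 5th to 95th percentile. List medians run from -0.03 for Wnt ligands to 0.28 for planar cell polarity genes, the 1 list with every point above 0.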

How the data were processed

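Poly(A) RNA from 8 libraries was sequenced with a strand-specific kit from 50 ng of total RNA, and preparations scoring below 7 for RNA integrity were excluded, per the labels' protocols. STAR, Partek, DESeq2 and mm10 are named in the submitters' processing notes, with no role or order; the annotation and the strand setting of the counting are not given in the sources used here. The deposited table holds 1 signal column for each library (judged from the values to be reads per gene over a size factor) and the authors' own comparison, with a p-value, FDR and ratio, the log2 of that ratio, and a fold change score with a sign, not used here. No deposited p-value was given for 11 genes. Between 88.5% and 91.7% of values under 1000 were whole multiples of the estimated value of 1 read (within 0.05; 7.71% to 12.7% by chance), too few to take the values as counts.

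The 14870 genes reaching 10 normalized counts in 4 or more libraries were fitted with limma-trend on log2(value + 1), 4 against 4, without covariates, with Benjamini-Hochberg adjustment over all genes tested and a threshold of 0.05 (R 4.3.3, limma 3.58.1; Python 3.11.15, numpy 2.4.6, pandas 2.3.3, scipy 1.17.1, matplotlib 3.10.9). The fit was tested on simulated data. Alternatives were other pseudocounts, filters and scalings, limma-voom on estimated reads, low Xist as a covariate, the length correction, and leaving out libraries. Transcript lengths came from GENCODE M21 by symbol (97.6% of genes), and the length correction removed a loess trend (span 0.5) from each library. Named genes were all members and, per pathway list, any gene past the threshold, the most abundant, and the smallest p in each direction, and the 3 genes most alike to Fzd9; marker lists are given by their sums, and their most abundant members are not reported here; others named were chosen after their values were seen. Deviations for likeness had the genotype mean subtracted. The members and lists were chosen with earlier results of these data known.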

Additional observations from a re-analysis of the deposited data

Results flagged for a closer look

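Of 22 groups of 4 libraries checked for 1 value far from the other 3 (10 Frizzled genes and Mef2c in each genotype), 3 stood out, and chance gives about 1 in 20, or 1.1 of 22. Wild-type library 1 was high for Fzd2, at 1582.0 normalized counts against 945.0 to 1011.7 (gap over range 0.895). Heterozygote-labelled library 6 was low for Fzd9, at 1765.3 against 2050.6 to 2102.9 (gap over range 0.845), and still above every wild-type library. Heterozygote-labelled library 8 was high for Fzd10, at 413.5 against 328.5 to 331.3 (gap over range 0.967).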

How the results depend on the processing

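No paired analysis was possible because wild type has replicates 1 to 4 and the other genotype 5 to 8, so no number occurs in both. The number of genes past the threshold, 12, was 7 with quantile normalization and 24 with the transcript length correction, and leaving out 1 library gave 0 (without wild-type library 2 or 4 or heterozygote-labelled library 8) to 221 (without wild-type library 3). Among the 9 members other than Fzd9 it was 0 in all 18 alternatives. Of all 10 members it was 1 with the length correction, and 0 to 1 when 1 library was left out (without library 3 or 6); the member was Fzd9 each time, whose value chose the family, so this describes the settings and is no test of it. Of pathway genes 0 to 2 passed when 1 library was left out, the 2 being Wif1 and Dkk2 without wild-type library 3, the fit with 221 genes past. The Mef2c log2 fold change kept its sign and its side of the threshold, from 0.38 to 0.60. The length correction turned Fzd3 to -0.15 and Fzd4 to -0.0252, and without the 2 low-Xist libraries Fzd1 was 0.0580 and Fzd2 0.15. Over fits leaving out 1 library, the log2 fold change ran from -0.10 to 0.12 for Fzd1, -0.16 to 0.0924 for Fzd2, -0.0507 to 0.27 for Fzd4 and -0.12 to 0.10 for Fzd6; Fzd3, Fzd5, Fzd7, Fzd8, Fzd9 and Fzd10 kept their sign there. With the shorter coding transcript, the Fzd5 share of the family sum went from 1.27% to 2.96%, above the 2.05% of Fzd4. Upper-quartile scaling cannot move shares. All members lay far above 3 reads; the part of depth in their spread was not tested.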

Other observations

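The 2 libraries with low Xist, wild-type library 1 and heterozygote-labelled library 5, held the lowest Fzd4 (197.3 and 249.8 normalized counts, against 297.1 to 401.3 in the other 6) and the highest Fzd1 of their genotype (1582.0 and 1342.6). Fzd6 was also lowest there within each genotype, at 598.3 and 633.3. This was noticed in the data, rests on 2 libraries, and was not tested; the labels give no sex.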
